A study of Mus musculus with 10 samples.

Results

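Nascent mesoderm cells of the d2 EB library were chosen by the UMIs of 10 genes. A cell was taken when at least 1 UMI was counted in 2 or more of 5 markers, of which Mesp1, Pgam2, Rnase4 and T are described here, and in fewer than 2 of the exclusion genes Pitx1, Tbx4, Hoxc8, Hoxc9 and Hoxa9, and when the authors did not list it as a primordial germ cell-like cell (PGCLC). This gave 189 of the 537 d2 EB cells, or 35.2% (exact Clopper-Pearson 95% interval 31.2 to 39.4%), of 5897 cells in the series. These 189 cells are called the members, and the values of these genes in them are a description of the choice and not a result.

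The study followed mouse embryonic stem cells on their way to PGCLC by droplet single-cell RNA sequencing, in 8 libraries of the wild-type line E14Tg2a and 2 of the line R1. Stem cells kept in 2i plus LIF became epiblast-like cells (EpiLC) in 2 days of Activin A (20 ng/ml) and bFGF (12 ng/ml), and then formed embryoid bodies (EB) in floating culture. EB medium held BMP4 (0.5 µg/ml), SCF (0.1 µg/ml), LIF (1000 U/ml) and EGF (50 ng/ml), and d2 EB were taken after 2 days in it. The other E14Tg2a libraries were 2i ESC, stem cells in serum plus LIF (S+L ESC), d1, d2 and d3 EpiLC, epiblast stem cells (EpiSC) and d4 EB. EpiSC were kept in the same doses of Activin A and bFGF as EpiLC. The R1 libraries were d4 EB of cells that were wild type (WT) or carried catalytically dead Mll3 and Mll4 (dCD). They were made with a later version of the droplet kit. Each condition had 1 library, so no test between conditions was possible, cells are not replicates, and every interval covers counting error only.

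In the gastrulating embryo, epiblast cells move into the primitive streak, lose epithelial junctions and leave it as mesoderm. WNT, Nodal, FGF and BMP signals drive this step, T marks the streak, and Mesp1 is switched on as the first mesoderm leaves it. The earliest and most proximal mesoderm, under strong BMP, forms the extraembryonic mesoderm of the allantois, amnion and yolk sac, and germ cell precursors arise beside it.

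The d2 EB library held 14649279 UMIs. Median depth was 22370 UMIs per member (6228 to 85770) and 26666 UMIs per cell in the 348 other d2 EB cells, with medians of 4201 and 4561 genes detected. The median mitochondrial share was 3.97% in the members and 4.08% in the other d2 EB cells. The other d2 EB cells were 91 listed PGCLC, 66 cells with 2 or more exclusion genes and fewer than 2 markers (posterior cells), 51 with 2 or more of each list, 18 with 2 or more of the extraembryonic ectoderm genes Esx1, Rhox6 and Rhox9, and 122 with none of these features (cells with neither list). Their median depths were 29664, 27329.5, 24111, 41036.5 and 25235 UMIs. Median UMIs per cell elsewhere were 33971 in 2i ESC, 28909 in S+L ESC, 36750, 35956 and 31893 in d1, d2 and d3 EpiLC, 31587 in EpiSC, 21658 in d4 EB, 13187.5 in R1 WT d4 EB and 11751 in R1 dCD d4 EB. Barcodes shared with another library were found in 2 d2 EB cells and 0 members. Scrublet called 6 of 537 cells doublets (1.12%), among them 1 member and 0 of the 51 cells with both lists, and called cells were kept.

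Levels are given as UMIs summed over a group of cells and scaled to 1000000 (CPM), with exact Poisson 95% intervals, and as ratios of CPM with exact conditional binomial 95% intervals in parentheses. Log2 ratios add 1 CPM to both sides. Gene positions are those of GENCODE vM21 on GRCm38.

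Mesp1 (ENSMUSG00000030544, chromosome 7, 79792241 to 79793788), the basic helix-loop-helix factor of the first mesoderm, was the most often detected marker, with a UMI in 157 of the 189 members (83.1%). It reached 213 CPM (200.2 to 227) in the members and 32.3 CPM in the other d2 EB cells. Single members held from 0 to 38 Mesp1 UMIs, with a median of 3. The 18 extraembryonic ectoderm gene cells, which should lack the gene, had 0 cells with a UMI at a greater depth (medians of 41036.5 and 22370 UMIs). Of the 21 cells with these ectoderm genes, 3 met the rule and were counted as members. Low marker detection in the 18 left, and in the posterior cells, was therefore partly set by the choice. With every cell thinned to 17159 UMIs, which left out 19 members, Mesp1 was seen in 131 of 170 (77.1%) members, 12 of 64 (18.8%) posterior cells and 0 of 18 (0%) extraembryonic ectoderm gene cells, where 0 of 18 cells allows up to 18.5% by the exact interval.

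T (ENSMUSG00000062327, chromosome 17, 8434423 to 8442496), the T-box factor of the streak, was detected in 123 members (65.1%). Its level was 103 CPM (93.5 to 112) in the members, 127 CPM in listed PGCLC and 1.06 CPM in posterior cells, so T did not separate the members from the PGCLC. After thinning, T was seen in 93 of 170 (54.7%) members and 2 of 18 (11.1%) extraembryonic ectoderm gene cells. The low values in posterior and extraembryonic ectoderm gene cells were partly set by the rule, which counts T.

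Pgam2 (ENSMUSG00000020475, chromosome 11, 5801640 to 5803733), the muscle form of the glycolytic enzyme phosphoglycerate mutase, was the most abundant marker at 300.1 CPM (284 to 317), in 126 members (66.7%). The posterior cells had 7.93 CPM and the cells with neither list 21.4 CPM. At the thinned depth Pgam2 was seen in 105 of 170 (61.8%) members and 30 of 49 (61.2%) cells with both lists. It was seen in 0 of 18 (0%) extraembryonic ectoderm gene cells. Cells with both lists had 2 or more markers by definition. The rule limited the other groups outside the members to few markers, so their low Pgam2 was partly set by it.

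Rnase4 (ENSMUSG00000021876, chromosome 14, 51091077 to 51106151), a secreted ribonuclease, was detected in 73 members (38.6%), at 31.0 CPM (26.1 to 36.6). Rnase4 shares its locus and strand with Ang, which lies inside it, so the assignment of UMIs between them is uncertain, and Ang itself was listed at 0.665 CPM. At the thinned depth Rnase4 was seen in 60 of 170 (35.3%) members and 20 of 49 (40.8%) cells with both lists. It was seen in 1 of 18 (5.56%) extraembryonic ectoderm gene cells. The low share in that last group was partly set by the rule, which counts Rnase4. Cells with enough markers became members or cells with both lists.

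By the choice, the exclusion genes were low. No exclusion gene was detected in 131 members (69.3%) and exactly 1 was detected in 58. Hoxc9, a homeobox gene of the trunk and tail, had 7.09 CPM in the members and 99.9 CPM in posterior cells. Hoxa9 had 3.99 and 48.6 CPM, and Hoxc8 had 2.22 and 69.8 CPM. The hindlimb and allantois genes Pitx1 and Tbx4 had 5.98 and 0.665 CPM in the members, against 79.8 and 38.6 CPM.

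Among the d2 EB cells that were not listed PGCLC and had fewer than 2 exclusion genes, 67 had 0 of the 5 markers, 73 had 1, 78 had 2, 56 had 3, 43 had 4 and 12 had 5. The 73 cells with 1 marker lie just outside the threshold and the 78 with 2 just inside. The numbers of cells showed no gap at the threshold. Of the 91 listed PGCLC, 44 (48.4%) also had 2 or more markers and were left out through the authors' list.

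Detection of the markers was compared in the d2 EB cells that were not listed PGCLC and had fewer than 2 exclusion genes, whatever their number of markers. T was detected in 55.7% of these cells with Mesp1 and in 20.1% of those without it, and Pgam2 in 55.7 and 31.3%. Rnase4 differed less, at 29.2 and 22.9%. These markers were proposed from the same library, so the shares are a description.

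The name was checked against genes of the streak and early mesoderm that the rule did not use. In the list of primitive streak and nascent mesoderm genes, 9 of 16 reached the minimum of 50 UMIs over both groups and are called tested, 3 were at least 2-fold higher in the members than in the other d2 EB cells and 1 was at least 2-fold lower. The median log2 ratio was 0.94, or 1.80 with the listed PGCLC left out of the cells compared. Over all 9740 genes tested, 169 (1.74%) were at least 2-fold higher, 190 (1.95%) at least 2-fold lower, and the median was -0.05. The list summed to 477 CPM in the members and 227 CPM in the other cells, with Fgf8 the most abundant, and the 7 genes under the minimum included Eomes and Frzb at 0. The rule split the same cells that are compared here, so these counts and ratios are descriptions with no test.

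**Figure D1:**
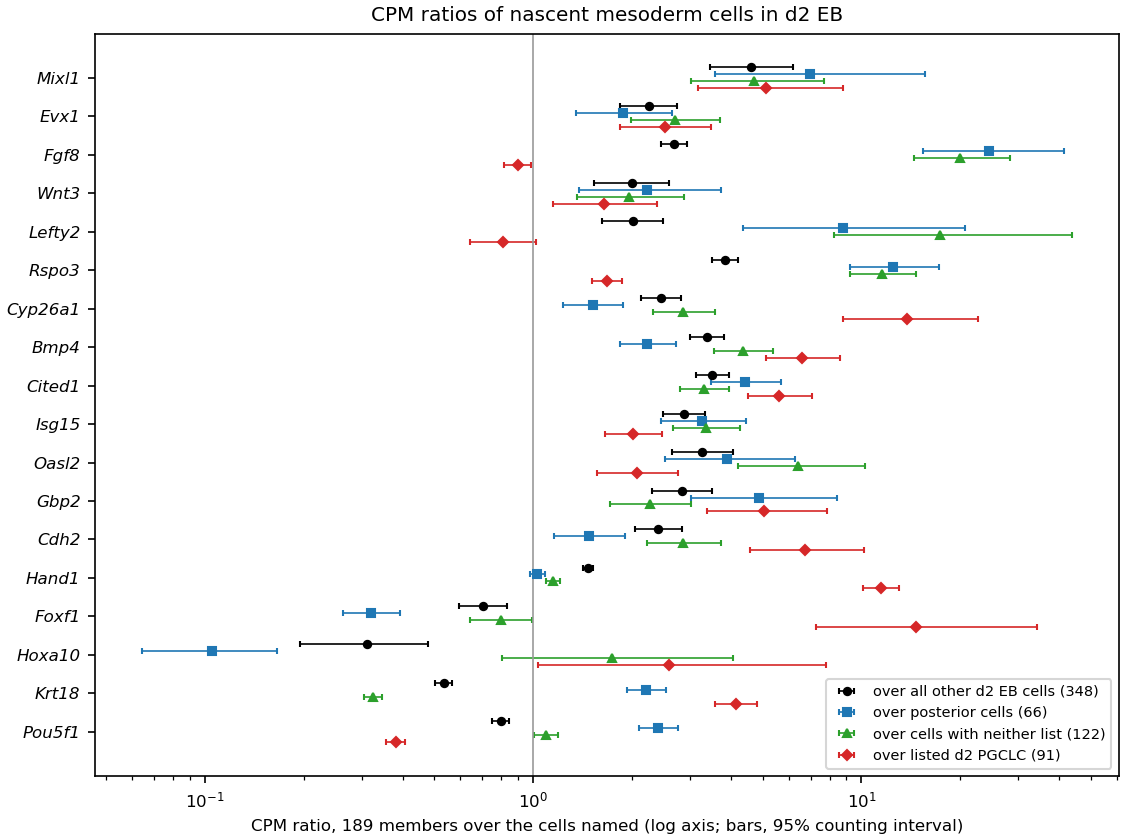
Ratios of CPM of the members over 4 groups of d2 EB cells, on a log axis, with exact 95% counting intervals as bars. Mixl1, Bmp4, Cited1 and Isg15 lie above 1 against each of these 4 groups, whereas Fgf8 and Lefty2 are above 1 against posterior cells and cells with neither list but not against listed PGCLC. Extraembryonic ectoderm gene cells are not shown apart.

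Mixl1 (ENSMUSG00000026497, chromosome 1, 180693043 to 180697034), a homeobox factor of the streak, reached 33.2 CPM (28.1 to 39.0) in the members and 7.20 CPM (5.64 to 9.05) in the other d2 EB cells, a ratio of 4.62 (3.47 to 6.19). The ratio was 6.99 (3.58 to 15.6) over posterior cells and 5.13 (3.17 to 8.76) over listed PGCLC. Mixl1 was therefore higher in the members than in each of these groups, PGCLC included. Thinned to the same depth, 47 of 170 (27.6%) members, 3 of 64 (4.69%) posterior cells, 3 of 89 (3.37%) PGCLC and 0 of 18 (0%) extraembryonic ectoderm gene cells had a Mixl1 UMI.

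Fgf8 (ENSMUSG00000025219, chromosome 19, 45736798 to 45742915), the fibroblast growth factor that streak cells need to migrate away, was at 232 CPM (219 to 247) in the members. It had 9.51 CPM in posterior cells, a ratio of 24.4 (15.4 to 41.4), and 11.6 CPM in cells with neither list, a ratio of 20.0 (14.5 to 28.4). Listed PGCLC had 259 CPM, and the ratio of the members over them was 0.897 (0.816 to 0.986). Fgf8 thus set members and PGCLC together apart from the posterior cells and the cells with neither list.

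Lefty2, a secreted antagonist of Nodal, followed the same split, with 37.2 CPM in the members, 4.23 in posterior cells and 46.0 in listed PGCLC. Nodal itself, the ligand that patterns the streak, was low at 12.0 CPM in the members, with 0 UMIs in posterior cells. Fst, which binds activin, had 15.1 CPM in the members and 2.11 CPM in posterior cells. These genes of the Nodal branch were present in the members and scarce in posterior cells.

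Evx1, a homeobox gene of the posterior streak, had 44.5 CPM in the members and 19.8 in the other cells, a ratio of 2.25 (1.84 to 2.75). Wnt3, the ligand that starts the streak, had 24.6 and 12.3 CPM, a ratio of 2.00 (1.53 to 2.60). Snai1, the repressor of Cdh1 at the epithelial to mesenchymal transition, had 59.2 CPM in the members, 67.1 in posterior cells and 5.80 in PGCLC. Snai1 was thus no higher in the members than in the posterior cells.

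Other genes of the streak were at 0 or low. Eomes, the T-box factor that acts upstream of Mesp1 in the embryo, had 0 UMIs in the members, which allows up to 0.665 CPM, and 5 UMIs in listed PGCLC. The anterior streak gene Gsc had 1.77 CPM, and Lhx1, which acts in the node and its derivatives, had 3.10 CPM. Tdgf1, the coreceptor of Nodal, had 4.88 CPM in the members and 55.2 CPM in PGCLC. Support for the label nascent mesoderm was therefore partial, since 3 of the 9 list genes tested passed 2-fold over the other d2 EB cells and Eomes was at 0.

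Against posterior cells the same list gave 6 genes at least 2-fold higher and 0 lower of 8 tested, with a median log2 ratio of 2.47. For all 7628 genes tested, 341 (4.47%) were higher, 71 (0.931%) were lower and the median was 0.01. Against listed PGCLC it gave 3 higher and 1 lower of 9 tested, with a median of -0.16, and for all 8097 genes 630 (7.78%) were higher, 322 (3.98%) lower and the median was 0.07. Both shares of higher genes lay above those over all genes, and so did the share of lower genes against listed PGCLC, at 11.1%. The median was far from that over all genes against posterior cells only.

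The paraxial and presomitic list (6 of 13 genes tested, 3 higher and 0 lower by 2-fold or more) had a median of 1.13, and its sum of 437 CPM in the members and 167 CPM in the other cells came mostly from Rspo3. The genes at least 2-fold higher were Rspo3, Cyp26a1 and Hes7, an oscillating repressor of the presomitic mesoderm, at 9.09 CPM in the members and 2.86 in the other cells. Tcf15, a factor of paraxial mesoderm and epiblast, had 21.9 CPM in the members, 7.93 in posterior cells and 111 in PGCLC, and the Notch ligand Dll3 had 8.87, 1.06 and 10.6 CPM. Other genes of presomitic and paraxial cells were scarce or missing. Tbx6, the T-box factor of presomitic cells, had 3.55 CPM and Msgn1, another presomitic factor, 0.443 CPM. The Notch ligand Dll1 had 2.22 CPM, and Foxc2 and Pcdh8 were at 0.

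Rspo3 (ENSMUSG00000019880, chromosome 10, 29452416 to 29535867), a secreted protein that amplifies WNT signals, had rank 4 by the lower bound of the ratio over the other d2 EB cells, among genes outside the rule. It reached 290.1 CPM (275 to 306) in the members and 75.5 CPM (70.2 to 81.0) in the other d2 EB cells, a ratio of 3.84 (3.51 to 4.21). The ratio rose to 12.5 (9.24 to 17.3) over posterior cells and 11.6 (9.24 to 14.6) over cells with neither list, and was 1.68 (1.51 to 1.86) over listed PGCLC. Rspo3 was detected at the thinned depth in 132 of 170 (77.6%) members, 55 of 89 (61.8%) PGCLC and 2 of 18 (11.1%) extraembryonic ectoderm gene cells.

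Cyp26a1, the enzyme that degrades retinoic acid, had 93.7 CPM in the members, 61.8 in posterior cells and 6.82 in PGCLC. Its ratio was 13.7 (8.79 to 22.7) over PGCLC, far above that of Rspo3. The retinoic acid list held Cyp26a1 as its only gene at least 2-fold higher over the other cells. It had a median of 0.32 (6 of 10 genes tested, 1 higher and 0 lower by 2-fold or more) and summed to 384 CPM in the members and 267 CPM in the other cells, led by Crabp1, a retinoic acid-binding protein. Aldh1a2, which makes retinoic acid, was at 0 in the members, so the degrading enzyme was present without the main embryonic synthetic one.

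Hand1 (ENSMUSG00000037335, chromosome 11, 57828705 to 57832818), the basic helix-loop-helix factor of lateral and extraembryonic mesoderm, reached 988 CPM (959.7 to 1018) in the members, 960.5 CPM in posterior cells, 861 CPM in cells with neither list and 86.3 CPM in PGCLC. Its ratio was 1.03 (0.974 to 1.09) over posterior cells and 11.5 (10.1 to 13.1) over PGCLC. Hand1 was thus high in members, posterior cells and cells with neither list and lower in the PGCLC, where Fgf8 was high. At the thinned depth it was seen in 167 of 170 (98.2%) members, 106 of 112 (94.6%) cells with neither list and 18 of 18 (100%) extraembryonic ectoderm gene cells, a type that itself expresses Hand1 in the embryo.

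The list of mesoderm receptors and lateral plate (15 of 16 genes tested, 2 higher and 2 lower by 2-fold or more) had a median of 0.06 and a sum of 1948 CPM in the members and 1407 CPM in the other cells. Over listed PGCLC, 10 of the 10 tested were at least 2-fold higher and the median was 2.35. Msx1, a homeobox target of BMP, had 323 CPM in the members, and Isl1, a factor of lateral mesoderm, had 40.8 CPM. The receptors by which early mesoderm is usually sorted were scarce, with Pdgfra at 4.65 CPM and Kdr at 7.09 CPM, and both were higher in posterior cells (10.0 and 21.1 CPM).

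Extraembryonic mesoderm and allantois genes differed in both directions from the pooled other d2 EB cells, and most of those tested were higher than in the PGCLC. For this list (11 of 16 genes tested, 0 higher and 2 lower by 2-fold or more) the median was 0.25, and the sum was 808 CPM in the members and 652 CPM in the other cells. The share lower was 18.2%, against 1.95% of all genes. Over posterior cells 0 were higher and 2 lower of 10 tested, the median was -0.33 and the posterior cells summed to 1064 CPM. Over listed PGCLC, 7 of the 9 tested were at least 2-fold higher and 0 lower, the median was 1.96 and the PGCLC summed to 238 CPM. Cdx2, a caudal homeobox factor, was the most abundant at 263 CPM, followed by Dlk1, an imprinted membrane protein, at 244 CPM and Hoxd9 at 134 CPM. Their levels in posterior cells were 359, 249.5 and 168 CPM, while Tbx2, a T-box gene of the allantois, was at 16.4 CPM in the members and 49.7 in posterior cells. Col3a1 was at 0 in the members.

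Foxf1, a forkhead factor of lateral and allantoic mesoderm, had 39.9 CPM in the members, 124 in posterior cells and 2.73 in PGCLC. Its ratio was 0.321 (0.263 to 0.392) over posterior cells and 14.6 (7.27 to 34.4) over PGCLC. Twist1, a mesenchymal basic helix-loop-helix factor, was also lower in the members than in posterior cells, with 15.3 and 55.0 CPM. For these factors the members lay between the PGCLC and the posterior cells.

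Hox genes differed in both directions from the posterior cells. Hoxb1, at the end of its cluster that is switched on first, had 27.0 CPM in the members, 7.93 CPM in posterior cells and 10.2 CPM in PGCLC. Its ratio was 3.41 (1.99 to 6.28) over posterior cells. Farther along, Hoxa7 had 15.5 CPM in the members and 101 in posterior cells, and Hoxa10 had 5.32 and 50.7 CPM, a ratio of 0.105 (0.0641 to 0.165). Hoxd9, the most abundant Hox gene in the members, differed less, with 134 and 168 CPM, and no Hoxd gene tested was 2-fold lower. Whether the difference follows the position in a cluster was not tested. Hoxa9, Hoxc8 and Hoxc9 chose the groups, so the lower levels of their neighbors in the members are not independent of the rule.

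Over the other d2 EB cells, Hoxa genes without Hoxa9 had a median log2 ratio of -0.91 (5 of 10 genes tested, 1 higher and 2 lower by 2-fold or more) and summed to 46.8 CPM in the members and 68.6 CPM in the other cells, with Hoxa7 the highest, but the median was 0.245 when genes with at least 10 UMIs were taken. Hoxb genes had a median of 0.30 (9 of 10 genes tested, 1 higher and 0 lower by 2-fold or more) and summed to 161 CPM in the members and 142 CPM in the other cells, led by Hoxb2. Hoxc genes had a median of -1.78 (2 of 7 genes tested, 0 higher and 2 lower by 2-fold or more) and summed to 6.87 CPM in the members and 22.8 CPM in the other cells. That median was -1.11 with at least 10 UMIs, -0.849 with no filter and -0.931 with 5 CPM added. Hoxd genes had a median of 0.13 (4 of 9 genes tested, 0 higher and 0 lower by 2-fold or more), with Hoxd9 giving most of 159 CPM in the members and 117 CPM in the other cells. The Hoxc cluster, which holds a pair of the exclusion genes, was thus the lowest, and Hoxa6, Hoxb13, Hoxc11, Hoxc12 and Hoxd12 were at 0 in the members.

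Ligands and targets of the signals added to the culture were then read. Bmp4 (ENSMUSG00000021835, chromosome 14, 46383520 to 46390669), a ligand that was also in the medium as protein, was at 148 CPM (137 to 159.9) in the members and 43.8 CPM (39.8 to 48.1) in the other d2 EB cells, a ratio of 3.39 (3.00 to 3.83). The ratio was 2.23 (1.84 to 2.71) over posterior cells, 4.37 (3.57 to 5.39) over cells with neither list and 6.59 (5.11 to 8.62) over PGCLC. Bmp4 was higher in the members than in each of these groups by CPM. At the thinned depth it was seen in 124 of 170 (72.9%) members, 44 of 64 (68.8%) posterior cells, 33 of 49 (67.3%) cells with both lists, 43 of 112 (38.4%) cells with neither and 23 of 89 (25.8%) PGCLC, so the share of cells with Bmp4 was similar in members and posterior cells.

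The BMP list (18 of 20 genes tested, 2 higher and 0 lower by 2-fold or more) had a median of 0.43 and a sum of 3675 CPM in the members and 2753 CPM in the other cells. The direct BMP targets Id1 and Id3, inhibitors of basic helix-loop-helix factors, were the most abundant at 876 and 1009 CPM in the members. Their ratios over the other d2 EB cells were 1.46 (1.41 to 1.52) and 1.10 (1.06 to 1.14), and over PGCLC 2.07 (1.94 to 2.21) and 1.86 (1.75 to 1.97). Over listed PGCLC, 10 of the 15 genes of the list that were tested were at least 2-fold higher and 0 lower, with a median of 1.12 and 1674 CPM in the PGCLC. Over posterior cells the list had 2 higher and 1 lower of 15 tested and a median of -0.09, and over cells with neither list 1 higher and 0 lower of 16 and a median of 0.09. These medians lay near 0, and the one over PGCLC did not.

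WNT genes (16 of 22 genes tested, 2 higher and 0 lower by 2-fold or more) had a median of 0.29 and a sum of 836 CPM in the members and 497 CPM in the other cells, led by Rspo3. Axin2, a common target of WNT signaling, had 46.1 CPM in the members and 38.6 in the other cells. Lef1, a nuclear mediator and target, had 91.8 and 51.2 CPM. The WNT ligands differed in both directions. Wnt5a and Wnt5b had 118 and 33.5 CPM in the members, with ratios over the other cells of 1.66 (1.48 to 1.86) and 2.11 (1.68 to 2.65). Wnt6, a ligand outside the list, ran the other way, with 2.44 CPM in the members, 14.01 in the other cells and 69.7 in extraembryonic ectoderm gene cells.

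The FGF list (17 of 20 genes tested, 1 higher and 0 lower by 2-fold or more) had a median of 0.03 and summed to 626 CPM in the members and 492 CPM in the other cells. Beyond Fgf8, the feedback phosphatases Dusp6 and Dusp4 had 53.0 and 27.3 CPM in the members and 25.4 and 7.40 CPM in posterior cells. Fgf3 ran the other way, with 36.1 CPM in the members and 62.4 in posterior cells. Nodal and activin genes (13 of 15 genes tested, 0 higher and 3 lower by 2-fold or more) had a median of 0.00 and summed to 292 CPM in the members and 275 CPM in the other cells. The antagonist Cer1 was at 0.

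Notch genes (9 of 13 genes tested, 1 higher and 0 lower by 2-fold or more) had a median of 0.31 and summed to 451 CPM in the members and 335 CPM in the other cells, most of it from Hes1, a repressor that Notch and other signals induce. Heyl was at 0 and Dll1, Dll4 and Lfng were each under 3 CPM in the members.

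Markers of later or other fates were low. Cardiac genes (1 of 11 genes tested, 0 higher and 0 lower by 2-fold or more) summed to 19.5 CPM in the members and 17.9 CPM in the other cells, with Tbx5 and Myocd at 0 and a median of 0.15 that rests on Myl7 alone. Blood and endothelial genes (5 of 17 genes tested, 0 higher and 0 lower by 2-fold or more, median 0.28) summed to 92.4 CPM in the members and 90.9 CPM in the other cells. Gata2 and Etv2, early factors of these lineages, made up most of that sum at 34.8 and 29.3 CPM, while the embryonic globins Hbb-y, Hba-x and Hbb-bh1 and the endothelial genes Tie1, Tek and Emcn were at 0.

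Endoderm and node genes (3 of 10 genes tested, 0 higher and 1 lower by 2-fold or more, median -0.81) summed to 82.0 CPM in the members and 136 CPM in the other cells, mostly Trh, a hormone precursor that was highest in PGCLC at 272 CPM. That median was 0.41 when genes with at least 10 UMIs were taken and 0.85 with the listed PGCLC left out. Foxa1, Cer1 and Noto were at 0 in the members and Foxa2 had 1 UMI. Neural ectoderm genes (1 of 7 genes tested, 0 higher and 0 lower by 2-fold or more, median 0.81) summed to 8.42 CPM in the members and 5.43 CPM in the other cells and came down to Nes, with Sox1, Pax6 and Six3 at 0. Genes of the 2-cell embryo had 0 of 7 tested and 1 UMI in the members, from Zscan4f. These lists did not describe the members.

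Extraembryonic ectoderm genes (9 of 10 genes tested, 0 higher and 3 lower by 2-fold or more, median -0.86) summed to 91.3 CPM in the members and 130.4 CPM in the other cells, mostly Gata3, which mesoderm under BMP also expresses, and Elf5 was at 0. Of the 21 cells with 2 or more of Esx1, Rhox6 and Rhox9, 3 were members. Rhox6 had 4.43 CPM in the members and 237 in the extraembryonic ectoderm gene cells.

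Germ cell genes (7 of 9 genes tested, 0 higher and 4 lower by 2-fold or more, median -1.23) summed to 85.1 CPM in the members and 174 CPM in the other cells. Dnd1, an RNA-binding protein of the germ line, was the most abundant in the members at 45.9 CPM, against 5.81 CPM in posterior cells, 8.87 in cells with neither list and 169 in listed PGCLC. Prdm1 and Tfap2c, transcription factors that specify germ cells, had 5.76 and 7.54 CPM in the members, and 48.4 and 90.0 CPM in PGCLC. Dppa3, a maternal and germ cell factor, had 1.77 CPM in the members and 103 CPM in PGCLC. Apart from Dnd1 and Kit, no gene of the list passed 10 CPM in the members.

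Pluripotency genes (12 of 12 genes tested, 0 higher and 9 lower by 2-fold or more) had a median of -2.01 and summed to 974 CPM in the members and 1933 CPM in the other cells. This difference was set by the PGCLC among the cells compared, since the median was 0.12 with the listed PGCLC left out. Pou5f1, which stays on into the streak, was at 314 CPM (298 to 331) in the members, 131 CPM (115 to 148) in posterior cells and 824 CPM in PGCLC. Dppa5a, an RNA-binding protein of stem cells, was the most abundant of the list at 518 CPM, while Nanog had 2.88 and Sox2 16.4 CPM. The members thus held more Pou5f1 than the posterior cells, with Nanog and Sox2 low in both.

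Genes of the formative and primed epiblast (9 of 13 genes tested, 0 higher and 1 lower by 2-fold or more, median -0.04) summed to 208 CPM in the members and 185 CPM in the other cells, with Lef1 the most abundant. Otx2 and Fgf5, which define EpiLC, and Zic2 were at 0 in the members. In d2 EpiLC, the cells that entered the EB, Otx2 had 87.2 CPM and Fgf5 72.6 CPM, so that the members were at least 131-fold and at least 109-fold lower against a floor of 3 counts over the members.

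Against d2 EpiLC, 1343 of 9904 genes (13.6%) were at least 2-fold higher in the members and 1357 (13.7%) at least 2-fold lower, with a median of -0.01, and the comparison crosses libraries, so the library and the stage cannot be told apart. Hand1 had 0 UMIs in d2 EpiLC and was at least 3676-fold higher in the members. Cdx2, Msx2, Sprr2a3, Hoxd9, Tgfb2, Id1, Cyp26a1, Rspo3 and Igf2 completed the 10 genes with the highest lower bound of the ratio. The lowest 10 were Otx2, Fgf5, Utf1, Dtx1, Calca, Tdh, Platr10, Pou3f1, Lefty1 and Foxd3. Of the 13 primed epiblast genes, all tested here, 11 were at least 2-fold lower in the members.

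Epithelial genes (11 of 13 genes tested, 0 higher and 5 lower by 2-fold or more, median -0.90) summed to 904 CPM in the members and 1559 CPM in the other cells, with the keratin Krt8 the most abundant. Cdh1, the junction cadherin of epithelia, had 27.0 CPM in the members, 4.23 in posterior cells and 37.5 in PGCLC. Krt18, the partner of Krt8, had 302 CPM in the members, 136 in posterior cells and 928 in cells with neither list. The members held more of the list's RNA than the posterior cells (498 CPM) and less than the cells with neither list (2369.8 CPM).

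Cdh2 (ENSMUSG00000024304, chromosome 18, 16588877 to 16809246), the cadherin of mesenchyme, was at 66.5 CPM (59.2 to 74.5) in the members, with ratios of 2.41 (2.04 to 2.84) over the other d2 EB cells, 1.48 (1.16 to 1.91) over posterior cells and 6.72 (4.59 to 10.2) over PGCLC. Vim, an intermediate filament of mesenchyme, was the most abundant of the mesenchymal list, with 504 CPM in the members and 276 in the other cells. The list (14 of 15 genes tested, 1 higher and 0 lower by 2-fold or more) had a median of 0.09, a sum of 1168 CPM in the members and 843 CPM in the other cells, and Lox at 0. At the thinned depth Cdh2 was seen in 100 of 170 (58.8%) members, 37 of 64 (57.8%) posterior cells and 19 of 89 (21.3%) PGCLC, and Cdh1 in 39 of 170 (22.9%), 2 of 64 (3.12%) and 41 of 89 (46.1%). The share of cells with Cdh2 was thus similar in members and posterior cells, and that of Cdh1 was higher in the members than in posterior cells.

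Among all genes outside the rule, the 25 with the highest lower bound of the ratio over the other d2 EB cells were, in order, Scara3, Rab20, Cyp2s1, Rspo3, Mixl1, Cited1, Bmp4, Sprr2a3, Sct, Rprm, Oasl2, Nmb, Chst7, Kcne1l, Isg15, Fgf8, Ghr, Nptx2, Defa30, Pdgfrl, Cfc1, Gnb4, Cpm, Gbp2 and Abr. Scara3 (ENSMUSG00000034463, chromosome 14, 65919394 to 65953935), a scavenger receptor, had 18.2 CPM (14.5 to 22.6) in the members and 2.17 CPM in the other cells, a ratio of 8.37 (5.18 to 14.1). Rab20 (ENSMUSG00000031504, chromosome 8, 11453518 to 11478710), a small GTPase of vesicle traffic, had 30.8 CPM (25.9 to 36.4) and 5.52 CPM, a ratio of 5.58 (4.06 to 7.75). Cyp2s1, a cytochrome P450, had 27.7 and 5.52 CPM. The genes at the head of the order were thus of modest level, with the abundant signaling genes just behind them.

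Cited1 (ENSMUSG00000051159, chromosome X, 102247381 to 102252181), a transcriptional coregulator without a DNA-binding domain of its own, was at 173 CPM (161 to 185) in the members, a ratio of 3.51 (3.14 to 3.94) over the other cells. At the thinned depth it was seen in 136 of 170 (80.0%) members and 13 of 18 (72.2%) extraembryonic ectoderm gene cells. Its detection was thus not particular to the members. Sct, the precursor of the hormone secretin, had 274 and 92.1 CPM in the members and the other cells, and Nmb, the precursor of neuromedin B, 144 and 48.3 CPM. Cfc1, a coreceptor for Nodal-type ligands, had 49.4 and 17.2 CPM. The order thus included the secreted proteins Rspo3, Bmp4, Fgf8, Sct and Nmb and the receptors or coreceptors Ghr and Cfc1.

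Sprr2a3, of the small proline-rich proteins of epithelia, had 149 CPM in the members, 109 in PGCLC and 14.8 in posterior cells, and Defa30, an alpha-defensin, had 40.1 and 13.4 CPM in the members and the other cells. Both belong to clustered families of near-identical copies, so which copy gave the UMIs is uncertain.

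A set of genes that interferon induces appeared in the order. Isg15 (ENSMUSG00000035692, chromosome 4, 156199424 to 156200818), a ubiquitin-like modifier, was at 91.5 CPM (82.9 to 101) in the members, with ratios of 2.88 (2.48 to 3.34) over the other cells and 2.02 (1.66 to 2.47) over PGCLC. Oasl2, related to the oligoadenylate synthetases, had 47.2 and 14.4 CPM, a ratio of 3.28 (2.64 to 4.07). Gbp2 (ENSMUSG00000028270, chromosome 3, 142620602 to 142638008), a guanylate-binding protein whose copy Gbp2b is close in sequence, had 46.5 and 16.4 CPM, a ratio of 2.84 (2.31 to 3.51). No interferon list had been drawn up, so this grouping was made after the values were seen. At the thinned depth Isg15 was seen in 90 of 170 (52.9%) members and 35 of 89 (39.3%) PGCLC. In extraembryonic ectoderm gene cells it was seen in 2 of 18 (11.1%). Gbp2 was seen in 78 of 170 (45.9%) members, 9 of 89 (10.1%) PGCLC and 5 of 18 (27.8%) such ectoderm gene cells. Both genes were thus also found in some cells of these other groups.

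Promoters are shown for Isg15 and Gbp2, which were each higher in the members than in the other cells, and for Mesp1, the marker detected most often. RefSeq promoters of GRCm38.p6, from 250 bases before to 50 after the start of a gene, were listed for 18 of the 25 leading genes and 4 of the 5 markers. The interferon-stimulated response element, searched on both strands as GAAA, any 2 bases and GAAA again, was in 3 of the 18 (Cfc1, Gbp2 and Isg15) and in 1131 of all 32851 promoters (3.44%). The T-box motif TCACACCT, searched on both strands, was in 1 of the 4 marker promoters, Mesp1, in 0 of the 18 and in 419 of all promoters (1.28%). Both motifs were chosen after the values were seen, the first because of Isg15 and Gbp2 themselves, so nothing is read from these counts. Capitals below mark the matches, and a match is a description of the sequence only. The Isg15 stretch (chr4:156200819-156200968, minus strand) is the 150 bases before the start and holds overlapping matches at -78, -72 and -66. The Gbp2 stretch (chr3:142620513-142620613, plus strand) holds the element on the other strand, as TTTC, any 2 bases and TTTC, at -59. The Mesp1 stretch (chr7:79793577-79793606, minus strand) runs from 16 bases before the start to 14 after it, with the match from base 6 after the start. The starts used here are those of RefSeq. By the GENCODE positions given above, which agree for Isg15, the Mesp1 stretch lies wholly inside the gene and the Gbp2 match just inside it.
Isg15: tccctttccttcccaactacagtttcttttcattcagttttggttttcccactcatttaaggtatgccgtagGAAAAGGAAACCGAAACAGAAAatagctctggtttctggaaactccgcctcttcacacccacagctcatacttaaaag
Gbp2: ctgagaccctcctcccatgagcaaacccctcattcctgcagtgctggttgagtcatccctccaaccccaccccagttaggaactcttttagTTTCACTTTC
Mesp1: gaattctggaaggggcccgctTCACACCTa

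Among the 25 genes with the lowest upper bound of the ratio, Tdh and Dppa3 were high in PGCLC, and Wnt6, Rhox6 and Flt1 in extraembryonic ectoderm gene cells. In order, the 25 included Tdh, 1700097N02Rik, Fam25c, Utf1, Dppa3, Gdf3, Cenpv, Nanog, Morc1, Chchd10, Sox2, Mylpf, Zfp42, Tfcp2l1, Tfap2c, Ina, Rpl39l, Cldn4, Wnt6, Rhox6, Flt1, L1td1, Atp1b1 and Lrp2. Tdh, the threonine dehydrogenase of stem cells, had 2 UMIs in the members (0.443 CPM) against 47.8 CPM in the other cells and 156 in PGCLC, a ratio of 0.00926 (0.00112 to 0.0336) over the other cells. Fam25c, of unknown function, had 0 UMIs in the members, at least 15.4-fold lower than in the other cells. With the listed PGCLC left out of the cells compared, the log2 ratios of Dppa3, Nanog and Sox2 were 0.13, 0.04 and 0.37, so their place in the order rested on the PGCLC. Flt1, a receptor of vascular endothelial growth factor, had 6.65 CPM in the members, 131 in extraembryonic ectoderm gene cells and 49.9 in cells with neither list.

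Over the 66 posterior cells, the 10 genes with the highest lower bound were Fgf8, Rspo3, Gbp2b, Car2, Sprr2a3, Igfbp2, Pdgfrl, Slc1a3, Selenop and Cyp2s1. Car2, a carbonic anhydrase, had 39.0 and 2.11 CPM, a ratio of 18.4 (7.08 to 68.5). Igfbp2, which binds insulin-like growth factors, had 80.9 and 7.93 CPM. The lowest were Hoxa10, Hoxa7, Hoxb6, Spin2c, Nrp1, Twist1, Foxf1, Igf2, Tbx2 and Greb1. Igf2, an imprinted growth factor, had 191 CPM in the members and 485 in posterior cells, and the ligand thus ran opposite to its binding protein.

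Over the 91 listed PGCLC, the 10 highest were Col1a1, Hand1, Cyp26a1, Plac1, Prdm6, Dlk1, Crabp1, Foxf1, Ramp2 and Gata6. Col1a1, a collagen chain of mesenchyme, had 32.1 CPM in the members and 3 UMIs in PGCLC, a ratio of 31.4 (10.5 to 154). Gata6, a zinc finger factor of early mesoderm and endoderm, had 31.9 and 2.05 CPM. The lowest were Tdh, 1700097N02Rik, Dppa3, Utf1, Gdf3, Cenpv, Nanog, Morc1, Sox2 and Chchd10, all of them also among the 25 lowest over the other d2 EB cells.

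The cells with neither list were compared after the data had been seen. Over these 122 cells, 200 of 8246 genes (2.43%) were at least 2-fold higher in the members, 158 (1.92%) at least 2-fold lower, and the median was -0.09. The highest were Fgf8, Rspo3, Lefty2, Sprr2a3, Oasl2, Dnaaf3, Rab20, Rtp4, Bmp4 and Dnd1, and the lowest Flt1, Cldn4, Ahnak, Csrp2, Slc2a1, Tmsb4x, Krt18, Igfbp2, 3830417A13Rik and Utf1. Slc2a1, a glucose transporter, had 62.3 CPM in the members and 236 in these cells. Ahnak, a large scaffold protein, had 18.8 and 91.2 CPM. Some of these cells grouped with the extraembryonic ectoderm gene cells, as given below, and the comparison does not separate them.

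Since Pgam2 is a glycolytic enzyme, its pathway was read. Glycolytic genes without Pgam2 (19 of 19 genes tested, 1 higher and 2 lower by 2-fold or more) had a median of 0.12 and summed to 6169 CPM in the members and 5843 CPM in the other cells, with Gapdh the most abundant. Pgam1, the common form of the same enzyme, had 508 CPM in the members and 479 in the other cells, a ratio of 1.06 (1.01 to 1.12). Aldoc, an aldolase, was the gene at least 2-fold higher, at 14.6 and 6.61 CPM.

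The RNase A family without Rnase4 had 0 of 9 genes tested, summed to 3.99 CPM in the members and 2.86 CPM in the other cells and was led by Rnase1, with 6 genes at 0.

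Over the other d2 EB cells, no cell cycle gene of the lists was 2-fold higher or lower. Mitosis genes (12 of 12 genes tested, 0 higher and 0 lower by 2-fold or more) had a median of -0.55 and summed to 790.3 CPM in the members and 1104 CPM in the other cells, with Ube2c, which helps degrade cyclins, the most abundant. S phase genes (12 of 12 genes tested, 0 higher and 0 lower by 2-fold or more) had a median of -0.30 and summed to 809.6 CPM in the members and 988 CPM in the other cells, led by Slbp. With every cell thinned to 17159 UMIs the medians were -0.50 and -0.29. Over d2 EpiLC, 8 of 12 mitosis genes and 5 of 12 S phase genes were at least 2-fold lower, against 13.7% of all genes, with 0 higher.

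**Figure D2:**
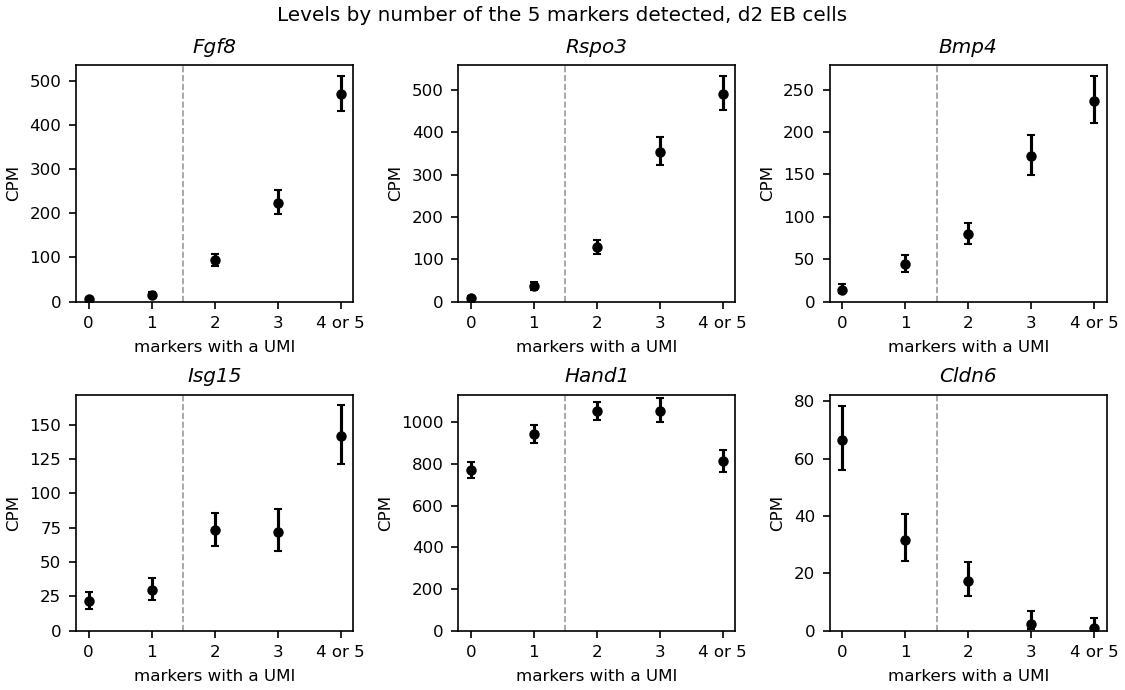
CPM of 6 genes that the rule did not use, in d2 EB cells that were not listed PGCLC and had fewer than 2 exclusion genes, by the number of the 5 markers with a UMI, with exact Poisson 95% intervals as bars and the rule's threshold as a dashed line. Fgf8, Rspo3 and Bmp4 rise from 0 to 4 or 5 markers, Cldn6 falls, and Hand1 has no steady trend.

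Members differed among themselves with the number of markers detected. Fgf8 had 4.75 and 15.9 CPM in cells with 0 and 1 marker, outside the rule, and 94.0, 224 and 469 CPM in members with 2, 3 and 4 or 5. Rspo3 had 8.07 and 36.5 CPM outside and 128, 354 and 491 CPM inside. Bmp4 had 14.2 and 44.4 CPM outside and 79.6, 172 and 237 CPM inside. These genes rose across the threshold by degrees and continued to rise within the members. The rule counts the same markers, and Fgf8, Rspo3 and Bmp4 were among the 25 genes with the highest lower bound over the other cells. A rise is therefore partly built in, also for Mixl1 and Isg15 below, and is a description only.

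Mixl1 took the same course, with 10.0 CPM just outside, 23.7 just inside and 55.4 CPM with 4 or 5 markers. Isg15 had 29.6 CPM just outside and 73.2, 72.1 and 142 CPM inside. Cldn6, a tight junction gene, fell from 66.4 CPM with 0 markers to 17.3 with 2 and 0.815 with 4 or 5. Hand1 had no steady trend, at 769, 942, 1053, 1056 and 813 CPM.

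Median UMIs were 29092 and 24228 in cells with 0 and 1 marker, and 23952.5, 21938, 21656 and 22364 in members with 2, 3, 4 and 5. Of the 63 shallowest members 31.7% had 4 or 5 markers, of the next 63 33.3%, and of the 63 deepest 22.2%. By median, the cells with 0 markers were the deepest, and the part of depth in the trends above was not tested.

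The members were also split by Mesp1 and T at the thinned depth, where 170 members remained. Both were detected in 76 members, Mesp1 without T in 55, T without Mesp1 in 17 and neither in 22. Members with both had the most Rspo3 (469 CPM), Mixl1 (57.5 CPM) and Lefty2 (68.2 CPM). Members with Mesp1 and no T had 181, 22.3 and 20.1 CPM of these genes. Kdr, the receptor of blood and vessel precursors, had 14.8 CPM in members with Mesp1 and no T and 15.9 CPM in members with neither, from 14 and 6 UMIs, against 1.53 CPM in members with both and 6.86 CPM in those with T alone, from 2 UMIs each.

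The 17 members with T and no Mesp1, a small group, had 415 CPM of Fgf8 and 459 CPM of Pou5f1, against 309.8 and 298 CPM in members with both. They had more Sox2 (82.3 CPM against 16.1) and Nanog (20.6 CPM against 2.30), and less Cyp26a1 (13.7 CPM against 98.9). Fgf8, Pou5f1, Sox2 and Nanog were also high, and Cyp26a1 low, in the listed PGCLC. The 22 members with neither, which qualified through other markers or through UMIs lost in thinning, had only 53.0 CPM of Fgf8 and 58.3 CPM of Rspo3, with 1211 CPM of Hand1.

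Whether the members lay together was read from 20 principal components of 2000 variable genes without the 10 rule genes. Of the 20 nearest neighbors of the members, 59.3% were members, against a share of 35.2% in the library. By number of markers the share was 16.9% and 30.5% for cells with 0 and 1, and 44.2, 64.1, 75.6 and 76.7% for members with 2, 3, 4 and 5. Members made up 7.31% of the neighbors of listed PGCLC, 17.4% of those of posterior cells, 35.2% of those of cells with both lists and 25.9% of those of cells with neither list. Genes that vary with the rule genes are among the genes used, so these shares describe the choice as well.

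K-means with 3 clusters on the same components put 179 of the 189 members (94.7%) in a cluster of 384 cells, 3 in a cluster of 89 and 7 in a cluster of 64. The largest cluster also held 65 of the 66 posterior cells, all 51 with both lists and 81 of the 122 cells with neither list (66.4%). The cluster of 89 held 84 of the 91 listed PGCLC, and that of 64 held 17 of the 18 extraembryonic ectoderm gene cells and 39 cells with neither list (32.0% of these, 60.9% of the cluster). The members were therefore part of a cluster shared with posterior cells, cells with both lists and most cells with neither, and did not form 1 of the 3 clusters by themselves.

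**Figure D3:**
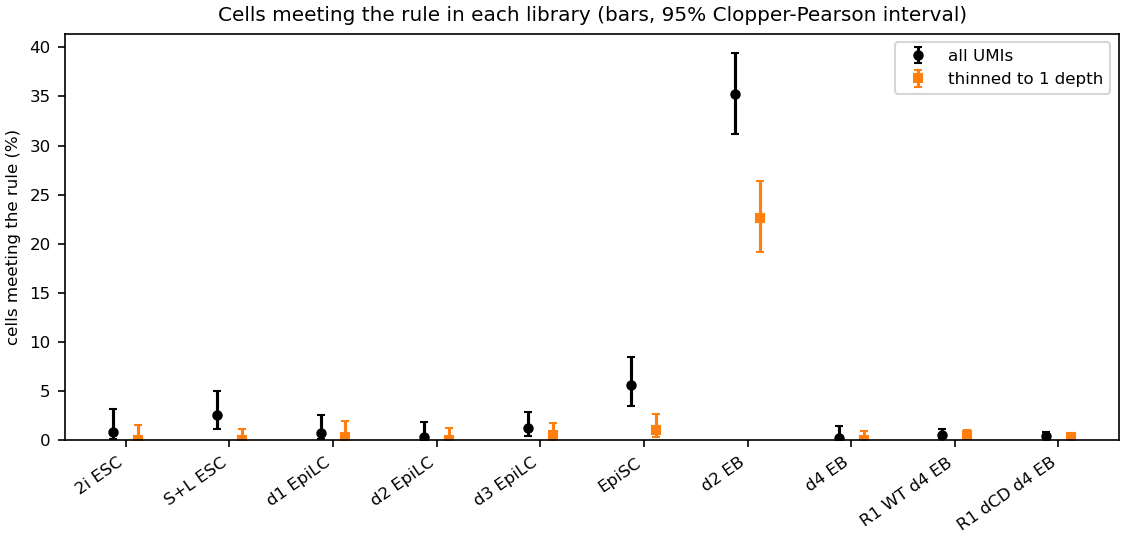
Percent of cells that met the rule in each of the 10 libraries, with all UMIs (black) and with every cell thinned to 6831 UMIs (orange), and exact Clopper-Pearson 95% intervals as bars. The d2 EB library, from which the markers were proposed, stands at 35.2 and 22.6%, and EpiSC is next at 5.63 and 1.07%.

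Across the series, cells that met the rule were found mainly in d2 EB. The markers were proposed from that library, so this is partly set by the choice and is a description. In d2 EpiLC 1 of 289 cells met it, and in d4 EB 1 of 368. In 2i ESC 2 of 227 cells did, in S+L ESC 8 of 309, in d1 EpiLC 2 of 280 and in d3 EpiLC 5 of 399. R1 WT d4 EB had 8 of 1416 and R1 dCD d4 EB 7 of 1699. Thinning every cell to 6831 UMIs left out 2 cells of d2 EB, 50 of R1 WT d4 EB and 170 of R1 dCD d4 EB. The share was then 22.6% (121 of 535) in d2 EB and at most 1.07% in each other library. The share rose between d2 EpiLC and d2 EB and was near background at d4 EB, with 1 library at each time.

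EpiSC came next, with 21 of 373 cells (5.63%, 3.52 to 8.48%), or 4 of 373 (1.07%) at 6831 UMIs. T was common there, in 151 cells (40.5%) at 84.5 CPM, while Mesp1 had 0.392 CPM. The 21 EpiSC cells had 0 UMIs of Hand1 and 289 CPM of Fgf8, so Hand1 was not detected in them, unlike in the d2 EB members.

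The levels of the markers over time are also a description, since the markers were proposed from d2 EB. Mesp1 went from 0.269 CPM in d2 EpiLC to 88.1 CPM in all d2 EB cells and 0.729 CPM in d4 EB. T went from 0.0896 to 63.6 and 0.208 CPM, and Pgam2 from 2.69 to 117 and 1.15 CPM. Rnase4 fell less, to 6.35 CPM in d4 EB from 15.5 CPM. Before any exclusion, 3 of 368 d4 EB cells had 2 or more markers, against 284 of 537 in d2 EB, and 69.0 and 22.3% of the cells had 2 or more exclusion genes.

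Among genes the rule did not use, Fgf8 had 38.0 CPM in d2 EpiLC, 132 CPM in all d2 EB cells and 0.625 CPM in d4 EB. Mixl1 had 0.269, 15.2 and 0.417 CPM, and Rspo3 0.538, 142 and 54.0 CPM. All 3 were highest in d2 EB of these 3 libraries, and Rspo3 alone stayed above 10 CPM in d4 EB. These genes are among the 25 leading genes, chosen for high levels in the d2 EB members. Their peak in d2 EB is therefore partly built in.

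All 25 leading genes were at least 2-fold higher in the d2 EB members than in d2 EpiLC, where 13.6% of all genes tested were. Being chosen for high levels in the members, they had to differ in this direction to some extent. In the 8 R1 WT and 7 R1 dCD cells that met the rule, with 106239 and 88807 UMIs in all, 15 of the 25 genes had a UMI in each, and these cells were too few for ratios. In the 21 EpiSC cells that met it, with 923802 UMIs, 22 of the 25 genes had a UMI.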

How the data were processed

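Single-cell RNA was measured in 8 E14Tg2a and 2 R1 libraries, and the deposited values are UMI counts per gene and cell that the authors made. For E14Tg2a they used Cell Ranger on GRCm38 (2.1.0103 as the labels write it, which the study's methods give as 2.1.0) and evened out mapped reads per cell between libraries when joining them, so depths are those after that step. E14Tg2a had values for 2782 cells (27998 genes), R1 for 3115 cells (32285 genes). Stages and listed PGCLC came from the supplement, and symbols from GENCODE vM21. The members and lists were chosen with earlier results of these data known.

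Counts were summed over cells and scaled to CPM. Genes needed 50 UMIs over both groups, and 2-fold was the threshold after adding 1 CPM. Named genes were the 10 rule genes, the genes of 30 lists, and, with at least 100 UMIs and outside the rule, the 25 (other d2 EB cells) or 10 (other comparisons) with the highest lower or lowest upper bound of the ratio in each direction. The comparison with cells that have neither list, and the alternatives that leave out extraembryonic ectoderm gene cells, were chosen after seeing the data. With 1 library per condition no p-value was computed. Cells were thinned without replacement (seed 1) to the lower 10th percentile of depth. Neighbors and k-means used log values of counts scaled to 10000 per cell. Doublets came from Scrublet in scanpy 1.11.5 at an expected 6%. Alternatives covered the rule, depth, pseudocount, filter, scaling, cell weights, doublets and cells compared. Python 3.11.15, numpy 2.4.6, scipy 1.17.1, pandas 2.3.3, scikit-learn 1.9.0 and matplotlib 3.10.9 were used, and the functions were tested on simulated data.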

Additional observations from a re-analysis of the deposited data

How the results depend on the processing

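The share of d2 EB cells meeting the rule, 35.2%, was 20.67% with 3 or more markers, 44.69% with no exclusion genes, 43.02% with listed PGCLC kept, 30.88% with cells thinned to 17159 UMIs, 25.14% with at least 2 UMIs counted as detected, 29.42% without T and 24.95% without Mesp1. Settings with fewer markers, or with 3 or more needed, lower the share by construction, and those that drop an exclusion raise it. Thinning and the threshold of 2 UMIs also act on the exclusion genes, so they can let cells in as well. They gave 155 and 135 cells, of which 149 and 124 were members. Leaving out doublets kept the share within its interval.

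Genes at least 2-fold higher and lower, 169 and 190, were 64 and 71 with 5 CPM added, 267 and 348 with at least 10 UMIs, 280 and 348 with no filter, 70 and 56 with at least 200 UMIs, and 256 and 398 with 3 or more markers. With listed PGCLC and extraembryonic ectoderm gene cells left out, an alternative chosen after seeing the data, 67 were lower. The filters also changed the number of genes tested, from 9740 to 12529, 16697 and 6118 in that order. The cause of these changes in the counts was not tested. Of 28 counts under alternatives, 17 stayed within 1.5 times the value reported.

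With listed PGCLC left out of the cells compared, the median of the pluripotency list reversed to 0.12, Dppa3 to 0.13, Nanog to 0.03956 and Sox2 to 0.37. With extraembryonic ectoderm gene cells left out as well they were 0.05443, 0.03883, 0.03779 and 0.30. The listed PGCLC are the cells with most of these RNAs. Of the list medians, 353 values under alternatives stayed within their interval, 33 moved and 2 reversed, and of the named genes 218, 42 and 6, where reversed means a change of sign in a value past 2-fold. Medians under 2-fold changed sign as well, among them Hoxa genes from -0.907 to 0.245 and endoderm and node genes from -0.811 to 0.4052, both with at least 10 UMIs.

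With 50 neighbors, 55.17% of the members' neighbors were members, and the other 2 settings stayed within the interval of 59.3%. In other libraries, thinning to 6831 UMIs gave 0% in 2i ESC, S+L ESC, d2 EpiLC and d4 EB and 1.072% in EpiSC. Asking for 3 or more markers gave 0% in 2i ESC, S+L ESC, d1, d2 and d3 EpiLC, d4 EB and R1 dCD d4 EB, 1.072% in EpiSC and 0.07062% in R1 WT d4 EB. The cause was not tested beyond the fewer UMIs or stricter rule.

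Depth limits what 0 means: 0 UMIs in the members allows up to 0.665 CPM. With 1 library per condition leaving out a library was impossible, and spread between cultures is unknown.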
